A study of Sus scrofa with 30 samples.

Results

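Mammary tissue taken on day 2 after weaning (W2, early involution, named as an early dry period in the sample labels) was compared with tissue taken on day 10 postpartum (PL, peak lactation), across all transcripts of the deposited table. Of the 30 samples of the series, 6 entered the comparison: W2 samples 2, 3 and 6 and PL samples 2, 3 and 6. They were chosen by stage and by the check for near-identical samples described further on, and no measured difference between the stages entered the choice. Each stage had 6 multiparous crossbred sows (Danish Landrace × Yorkshire, half-siblings), with 1 sample per sow, so W2 and PL came from different animals. No sow carried a genetic alteration or received an agent named in the labels, and the ages of the sows, listed in the study's supplement, are not repeated here. The length of lactation before weaning is not given in the sources used here. Parenchyma was cut out of 1 gland on the left side, away from fat, skin and connective tissue, and RNA was read as TruSeq libraries. Every value is therefore a mean over the cell types of a piece of tissue, and fewer cells of a type and less RNA per cell cannot be told apart.

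The lactating gland is a secretory epithelium of alveoli. Luminal cells make caseins, whey proteins, lactose and milk fat under prolactin and the transcription factor STAT5, and myoepithelial cells around them contract to eject milk. When suckling ends, milk stays in the alveoli, and in rodents the first phase of involution is marked by the cytokine LIF, by the transcription factor STAT3 and its targets, by acute phase proteins and by lysosome-linked cell death. A later phase brings proteases that break down the matrix, and adipocytes fill the space that alveoli leave.

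The table holds 61773 transcripts, of which 32688 (52.9%) are reference transcripts of 14920 genes and 29047 were assembled by the authors in 11061 loci without gene names. The file calls its values FPKM. Since their sum is nearly equal in every sample, which is a property of TPM, the neutral word unit is used here. Samples 1, 4 and 5 of W2 were near-copies of each other, and so were samples 1, 4 and 5 of PL. The largest median relative difference between them was 1.85% in PL and 1.81% in W2, against 22.98% to 59.81% and 21.22% to 25.78% between pairs of the others. Their mean differed from the mean of the others by a median of 0.741% in PL and 0.692% in W2, so they were not counted, which left n = 3 per stage. PL sample 2 stood apart from PL samples 3 and 6. It had 34065 transcripts above 0, against 42357 and 39524 in the other PL samples and 44815 to 46114 in W2. For several gene lists, results are given with and without it. The study's methods name no batch.

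The labels were checked against the data. All 7 milk protein genes had their lowest mean of the 5 stages in W2, and 5 of them had their highest in PL. Genes that mark early involution in rodents did not follow the labels in the same way: 12 of 18 genes of the LIF, OSM and STAT3 list and 17 of 23 acute phase genes had their highest stage mean in PL. The mean of W2 also lay below that of the samples titled MG (mid-gestation, day 70 of gestation) in all 7 milk protein genes. The single samples of W2 and MG overlapped in PAEP, LALBA, WAP and CSN1S2, and did not in CSN1S1, CSN2 and CSN3. The stage labels of the samples titled MG and EL (early lactation) are exchanged against their titles, and titles were followed throughout. Whether they hold for each library was not tested.

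Summed over the reference transcripts of each gene, 1334 genes were higher and 327 lower in W2, on both the deposited values and values scaled by the median ratio. These are 8.94% and 2.19% of the 14920 reference genes tested. A gene was called when its adjusted p was below 0.05 on both scales, in a limma fit of log2(units + 0.5) over the 15 counted samples of the 5 stages, in the same direction. All log2 fold changes are W2 minus PL on that scale, which understates changes of genes with low values, and the value after ± is the standard error. The choice of scale bears on the counts, since a share gained by some transcripts is lost by others. Milk protein transcripts took 40.8%, 24.9% and 22.6% of all units in PL samples 2, 3 and 6 and 13.9%, 10.5% and 11.3% in W2 samples 2, 3 and 6. The 20 highest transcripts of each sample took 59.9%, 43.0% and 42.2% in PL and 28.9%, 25.6% and 26.1% in W2. The samples did not overlap in either share, and an exact permutation test (two-sided, n = 3 per stage) gave p = 0.1, the smallest that 3 samples against 3 allow. Over all reference genes the median log2 fold change was 0.71 as deposited and 0.11 after scaling. Changes given below as deposited should be read against that shift.

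**Figure D1:**
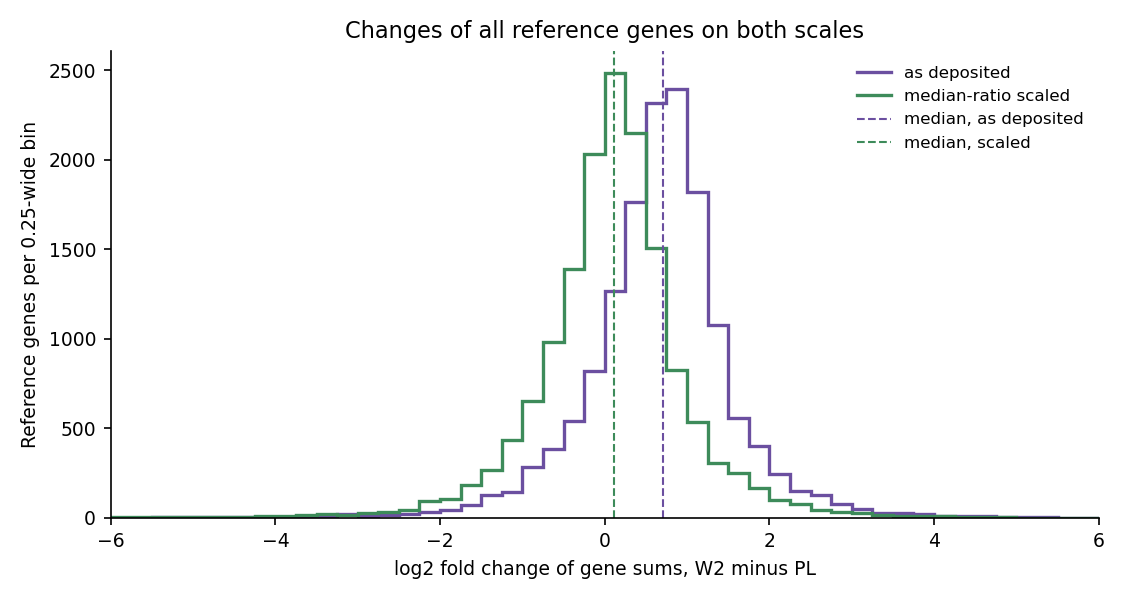
Number of reference genes in bins of the log2 fold change of the gene sum (W2 minus PL), as deposited (purple) and after median-ratio scaling (green). The dashed lines mark the medians, 0.71 as deposited and 0.11 after scaling, and the whole distribution lies farther left after scaling.

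Among single transcripts, 1415 were higher and 339 lower in W2 as deposited, where both an adjusted p below 0.05 and a change of 2 or more on the log2 scale in either direction were required (2.29% and 0.549% of those tested). After scaling, 481 were higher and 460 lower (0.779% and 0.745%), so that the share of lower transcripts moved from 19.3% to 48.9%. With W2 and PL fitted alone, in place of all 5 stages together, 437 of the 1661 called genes (26.3%) kept their call, and in all 2.48% of reference genes were called higher and 0.657% lower. Without PL sample 2, 1357 of them (81.7%) kept it, and 9.03% were called higher and 3.84% lower. Milk protein, acute phase, cholesterol, LIF and STAT3, and secretory pathway genes held the highest shares of falls among the 25 gene lists (cell type markers apart), and cell division, ribosomal protein, translation and splicing genes the highest shares of rises. The lists and their members were chosen with earlier results of these data known. Their shares are therefore descriptive, also where set against the share over all reference genes. The median log2 fold change of 10 of these lists changed sign with the scale, from at or above 0 as deposited to below 0 after scaling: lactose synthesis, amino acid transporters, prolactin and STAT5 signalling, immediate early genes, chemokines, cell death, lysosome, tight junctions, antioxidants and the mitochondrial genome. The same held for 5 of 12 lists of cell type markers, those of luminal epithelium, adipocytes, endothelium, neutrophils and erythroid cells.

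**Figure D2:**
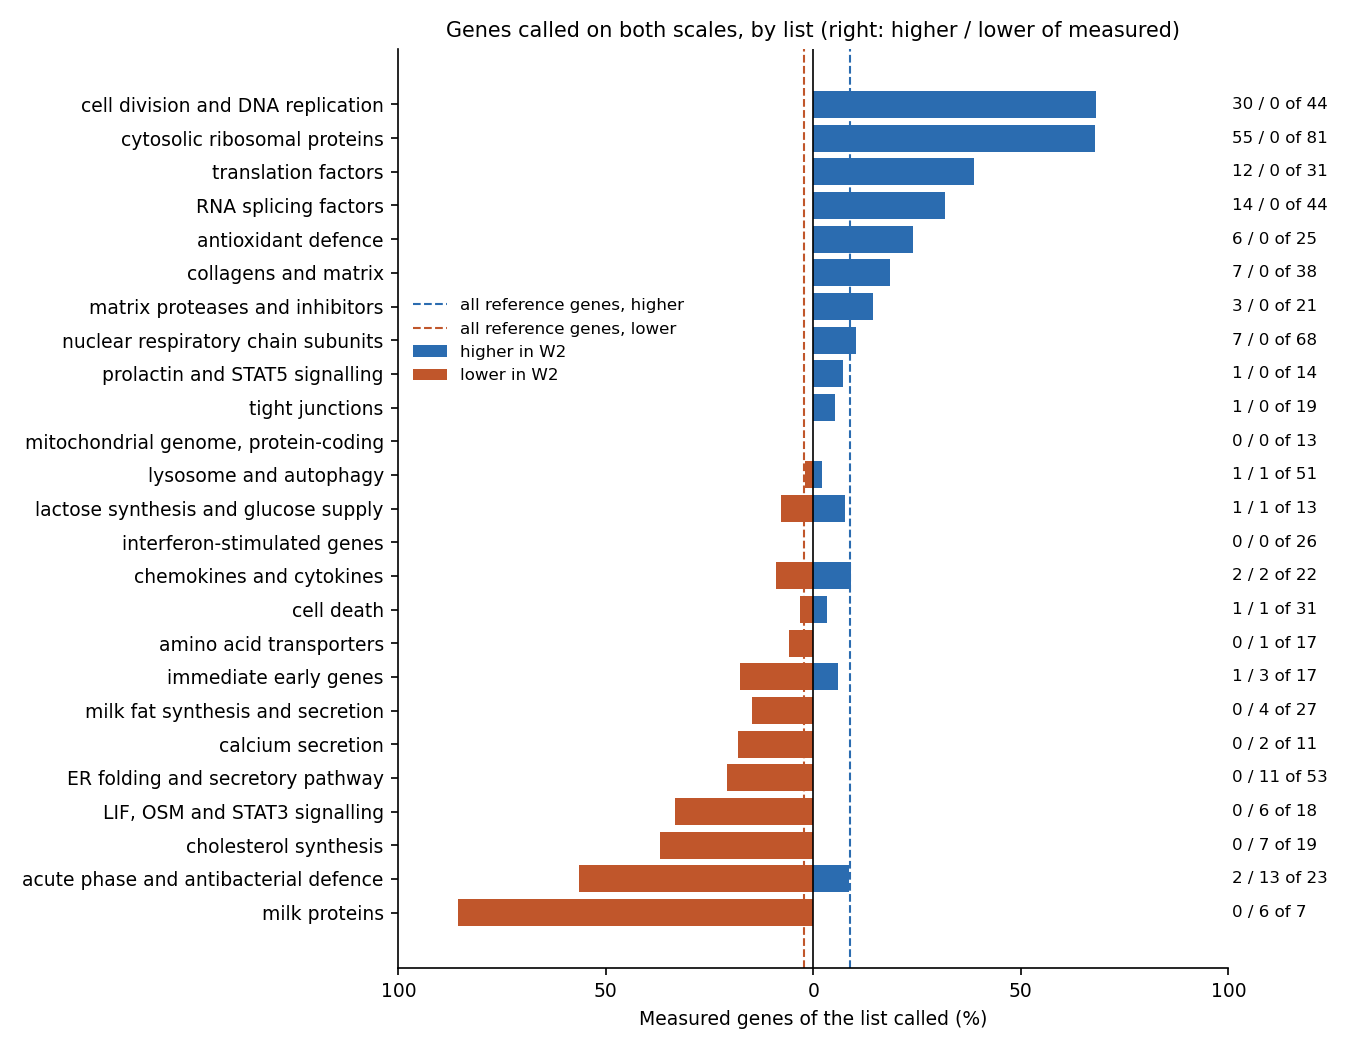
Percentage of the measured genes of each list that were called higher (blue, right) or lower (orange, left) in W2 on both scales, with the counts at the right edge. The dashed lines are the shares over all reference genes, 8.94% higher and 2.19% lower. The bars of 30 of 44 cell division genes, 55 of 81 ribosomal protein genes, 6 of 7 milk protein genes and 13 of 23 acute phase genes reach farthest beyond them.

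Milk protein genes fell, with 6 of 7 called lower in W2 (2.19% of all reference genes were) and none higher. Their median log2 fold change was -4.17 as deposited and -4.90 after scaling. Of the 7, 6 were also called without PL sample 2, and 4 with both stages fitted alone. In what follows, values are listed in the order of samples 2, 3 and 6 of a stage, and on the deposited values the samples of both stages did not overlap for any called gene named, except JUNB, ZFP36 and TNFSF10. CSN1S2 encodes alpha-S2-casein and lies on chromosome 8 from 66971081 to 67012343 of Sscrofa11.1, the build of all coordinates here. It stood at 84152, 47887 and 32080.2 units in PL and at 39.3, 9.95 and 17.2 in W2, without overlap. CSN1S2 changed by -11.34 ± 1.49 on the log2 scale (limma adjusted p = 0.00033) and by -12.07 after scaling. WAP, the whey acidic protein gene (chromosome 18 from 50359599 to 50361906), went from 12052, 8104 and 5910.1 units in PL to 3.99, 1.14 and 3.46 in W2. WAP changed by -11.40 ± 1.33 on the log2 scale (limma adjusted p = 0.00018) and by -12.08 after scaling. LALBA encodes alpha-lactalbumin, the subunit that turns galactosyltransferase into lactose synthase, and lies on chromosome 5 from 79214487 to 79216791. Its level ran from 30875, 6565 and 2041 units in PL, widely spread among those 3 sows, to 29.5, 2.31 and 13.7 in W2. LALBA changed by -9.45 ± 1.52 on the log2 scale (limma adjusted p = 0.00095) and by -10.16 after scaling.

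The remaining caseins changed less. CSN3, kappa-casein, which keeps casein micelles apart (chromosome 8 from 67099131 to 67109112), stood at 51705, 27038 and 28090.3 units in PL and 1642, 1640.0 and 2515 in W2. CSN3 changed by -4.17 ± 0.44 on the log2 scale (limma adjusted p = 0.00012) and by -4.90 after scaling. CSN2, beta-casein, went from 98647, 38297 and 17661 to 3799, 1405 and 2901 units, with a log2 fold change of -4.02 ± 0.62 (limma adjusted p = 0.00078), and CSN1S1, alpha-S1-casein, from 7573, 10909 and 5455 to 2626, 2722 and 2548, with -1.54 ± 0.32 (limma adjusted p = 0.0039). Both lost their call with both stages fitted alone. PAEP, the beta-lactoglobulin gene, was the one milk protein gene that was not called: it stood at 122069, 110169 and 134097 units in PL and 130309, 98685 and 104359 in W2, and the samples overlapped. Its log2 fold change was -0.14 ± 0.14 as deposited (limma adjusted p = 0.48) and -0.88 after scaling (limma adjusted p = 0.015). Differences between the 7 genes were not tested.

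**Figure D3:**
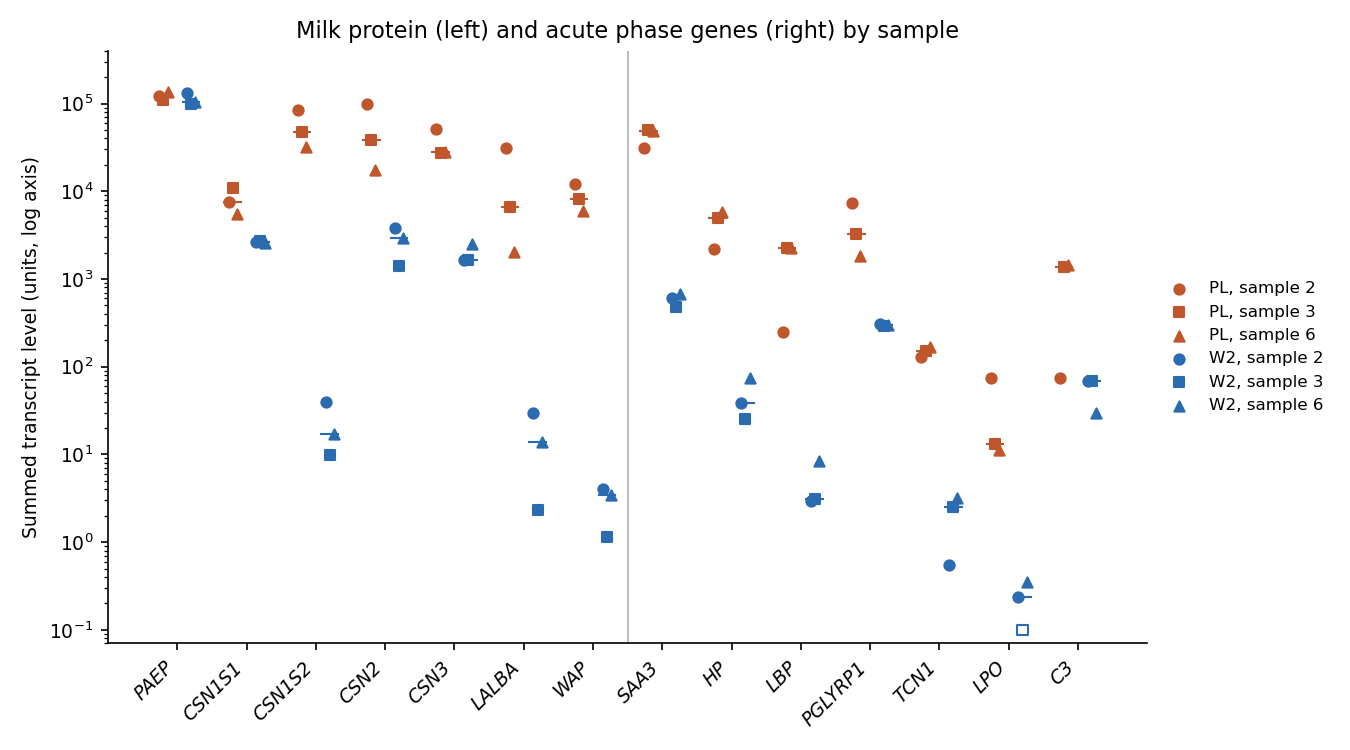
Summed transcript level of each gene in units on a log axis, for PL (orange) and W2 (blue) samples 2 (circle), 3 (square) and 6 (triangle), with the stage median as a short line. The hollow marker at the foot is a value listed at 0. PAEP lies between 98685 and 134097 units in every sample, whereas CSN1S2, LALBA and WAP lie at or below 39.3 units in every W2 sample, and PL sample 2 lies below PL samples 3 and 6 in LBP, HP and C3.

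Genes for the other parts of milk gave fewer calls. XDH, xanthine dehydrogenase, which helps to coat secreted fat globules (chromosome 3 from 107987060 to 108052043), fell from 1363, 908 and 768 units in PL to 122, 62.7 and 131 in W2. XDH changed by -3.29 ± 0.51 on the log2 scale (limma adjusted p = 0.00078) and by -4.02 after scaling. SCD, a desaturase, ACSL3, which activates fatty acids, and ELOVL6, which lengthens them, were also called lower, so that 4 of 27 milk fat genes fell (14.8%, against 2.19% of all reference genes) and none rose. Their PL values were uneven: SCD stood at 561, 184 and 95.4 units and ACSL3 at 758, 241 and 167, both highest in PL sample 2, against 52.4, 56.9 and 70.7 and 106, 95.2 and 102 in W2. Most of the list was not called, and PLIN2, which coats lipid droplets, stood at 491, 1089 and 1005 units in PL and 1457, 1176 and 1289.6 in W2, with a log2 fold change of 0.68 ± 0.24 as deposited and -0.05 after scaling. Among 13 genes of lactose synthesis and glucose supply, SLC5A1, a sodium-glucose cotransporter (chromosome 14 from 48566400 to 48704145), rose from 13.2, 6.42 and 3.49 to 37.9, 52.7 and 40.2 units. SLC5A1 changed by 2.59 ± 0.38 on the log2 scale (limma adjusted p = 0.00058) and by 1.89 after scaling. HK2, hexokinase 2, was called lower at 2.31, 2.52 and 1.30 units in PL and 0.422, 0.883 and 0.759 in W2. The list thus had 7.69% called each way, against 8.94% higher and 2.19% lower over all reference genes. Calls were lost for SCD without W2 sample 2 or 3 (limma adjusted p up to 0.058), SLC5A1 without W2 sample 3 (limma adjusted p = 0.059) and HK2 without PL sample 2 or 3 or W2 sample 2 (limma adjusted p up to 0.068).

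Cholesterol synthesis genes fell in 7 of 19 cases (36.8%, against 2.19% of all reference genes) and rose in none, with a median log2 fold change of -0.53 as deposited and -1.24 after scaling. INSIG1, the sterol sensor that holds back SREBP (chromosome 18 from 2885494 to 2898758), stood at 114, 73.7 and 30.6 units in PL and 10.9, 13.1 and 12.9 in W2. INSIG1 changed by -2.33 ± 0.36 on the log2 scale (limma adjusted p = 0.00082) and by -3.04 after scaling. HMGCS1, an early enzyme of the pathway, went from 399, 131 and 52.6 to 26.4, 30.1 and 40.5 units. HMGCS1 changed by -2.12 ± 0.51 on the log2 scale (limma adjusted p = 0.0085) and by -2.85 after scaling. LSS and SC5D, later enzymes of the pathway, fell by less, from 23.1, 27.0 and 18.5 to 5.16, 8.61 and 13.4 units for LSS and from 34.6, 16.9 and 15.9 to 6.47, 8.78 and 9.77 for SC5D. SREBF2, a transcription factor of the pathway, was not called. Among the fits that left out 1 sample, no call was made for LSS without W2 sample 2 (limma adjusted p = 0.066) and SC5D without PL sample 2 or W2 sample 2, 3 or 6 (limma adjusted p up to 0.12). PL sample 2 had the highest level of HMGCS1, INSIG1 and SC5D. Without it 4 of the 19 genes were called lower, without W2 sample 2 there were 3 and without W2 sample 3 there were 4. With both stages fitted alone none was.

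Among 17 amino acid transporters, SLC6A14, which carries neutral and cationic amino acids (chromosome X from 95482494 to 95507200), was the one gene called (5.88% lower, against 2.19% of all reference genes). It went from 393, 206 and 211 units in PL to 16.1, 8.08 and 14.6 in W2. SLC6A14 changed by -4.32 ± 0.79 on the log2 scale (limma adjusted p = 0.0019) and by -5.04 after scaling. Of 11 calcium genes, 2 were called lower (18.2%, against 2.19%) and none higher. ORAI1, the pore of store-operated calcium entry, went from 181, 123 and 139 to 70.4, 66.6 and 96.1 units and ATP2B2, the apical calcium pump of the lactating gland, from 1.41, 6.24 and 2.89 to 0.351, 0.320 and 0.171. ORAI1 changed by -0.92 ± 0.20 on the log2 scale (limma adjusted p = 0.0045) and by -1.65 after scaling. ATP2B2 changed by -2.18 ± 0.46 on the log2 scale (limma adjusted p = 0.0041) and by -2.64 after scaling.

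Genes of protein folding and export in the endoplasmic reticulum were called lower in 11 of 53 cases (20.8%, against 2.19%) and higher in none. The median of the list was -0.20 as deposited and -0.90 after scaling, and 4 of the 53 were called with both stages fitted alone. After scaling alone 39 were called lower and none higher, against 1447 and 1994 of all 26019 genes and loci. As deposited alone 11 were called lower and 2 higher. KDELR3, a receptor that returns escaped chaperones (chromosome 5 from 9505205 to 9515723), stood at 56.3, 46.7 and 47.4 units in PL and 13.5, 17.5 and 16.4 in W2. KDELR3 changed by -1.64 ± 0.22 on the log2 scale (limma adjusted p = 0.00037) and by -2.36 after scaling. SEC61A1, the core of the protein-conducting channel, went from 178, 161 and 97.4 to 44.8, 32.2 and 91.2 units, with W2 sample 6 close to PL. SDF2L1 and CRELD2, both induced by unfolded proteins, also fell. Calls were lost for SEC61A1 without W2 sample 3 (limma adjusted p = 0.058) and CRELD2 without PL sample 6 or W2 sample 3 (limma adjusted p up to 0.092). HSPA5, the chaperone BiP, went from 381, 335 and 392 to 155, 197 and 246 units, with a log2 fold change of -0.91 ± 0.20 (limma adjusted p = 0.0048). HSP90B1 and CALR were not called: their log2 fold changes were -0.36 ± 0.16 and -0.26 ± 0.14 as deposited.

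Acute phase and antibacterial genes fell in 13 of 23 cases (56.5%, against 2.19% of all reference genes) and rose in 2. Together they took 4.28%, 6.69% and 6.64% of all units in PL samples 2, 3 and 6 and 0.207%, 0.193% and 0.199% in W2 (exact permutation test, two-sided, n = 3 per stage, p = 0.1). SAA3, a serum amyloid A made in the mammary gland (chromosome 2 from 41021349 to 41025950), accounted for most of this. It stood at 31130.5, 49876 and 48332 units in PL and 613, 483 and 678 in W2, and the spread within each stage was small beside the difference. SAA3 changed by -6.17 ± 0.35 on the log2 scale (limma adjusted p = 2.4e-06) and by -6.90 after scaling. HP, haptoglobin, which binds free haemoglobin (chromosome 6 from 14980382 to 14985245), went from 2179, 4941 and 5848 to 39.0, 25.6 and 75.1 units. HP changed by -6.54 ± 0.75 on the log2 scale (limma adjusted p = 0.00016) and by -7.27 after scaling. LBP, which hands bacterial lipopolysaccharide to CD14 (chromosome 17 from 41398935 to 41429467), stood at 246, 2271 and 2232 units in PL and 2.94, 3.12 and 8.37 in W2. LBP changed by -7.81 ± 0.82 on the log2 scale (limma adjusted p = 0.00012) and by -8.51 after scaling. TCN1, a vitamin B12 binder (chromosome 2 from 11633377 to 11646261), went from 127, 150.4 and 169 to 0.555, 2.49 and 3.16 units, and PL sample 2 did not stand apart in it. TCN1 changed by -6.04 ± 0.63 on the log2 scale (limma adjusted p = 0.00012) and by -6.70 after scaling.

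PL sample 2 was close to W2 in several further genes of the list. C3, the central complement component, stood at 75.2, 1382 and 1461 units in PL and 68.4, 67.9 and 30.0 in W2, and CP, ceruloplasmin, at 0.188, 30.3 and 19.5 and 0.0418, 0.0836 and 0.0386. LCN2, lipocalin 2, which withholds iron from bacteria, stood at 9.43, 1122 and 1647 units in PL and 21.5, 23.5 and 23.7 in W2; PL sample 2 lay below every W2 sample and the gene was not called (limma adjusted p = 0.065 as deposited). In contrast, PGLYRP1, which binds peptidoglycan, LPO, lactoperoxidase, and PIGR, which carries immunoglobulin A into milk, were highest in PL sample 2: PGLYRP1 stood at 7333, 3222 and 1830.4 units in PL and 304, 290.1 and 295 in W2, LPO at 74.7, 13.1 and 11.1 and 0.237, 0 and 0.351, and PIGR at 769.6, 327 and 275 and 99.4, 73.1 and 106. LTF, lactoferrin, was not called, with 721, 925 and 2580.2 units in PL and 527, 685 and 548 in W2. LYZ, lysozyme, rose from 3.88, 14.8 and 9.93 to 64.8, 41.3 and 29.4 units, and WFDC2 from 9.54, 8.30 and 6.92 to 26.7, 25.9 and 39.5. LYZ changed by 2.29 ± 0.42 on the log2 scale (limma adjusted p = 0.0019) and by 1.59 after scaling. Without PL sample 2, 17 of the 23 genes were called lower and 2 higher. With both stages fitted alone, 7 were called lower. Of the genes named here, no call was made for C3 without W2 sample 6 (limma adjusted p = 0.054), CP without PL sample 3 or 6 or W2 sample 2, 3 or 6 (limma adjusted p up to 0.1) and WFDC2 without PL sample 3 or 6 or W2 sample 2, 3 or 6 (limma adjusted p up to 0.14).

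The genes through which LIF and oncostatin M act in rodent involution were called lower in W2 in 6 of 18 cases (33.3%, against 2.19%) and higher in none. LIFR, OSM and IL6 were not matched in the table and are not analysed here. LIF itself was near the floor, at 0.0808, 1.38 and 0.570 units in PL and 0.0730, 0.170 and 0.147 in W2, and was not called. OSMR, the oncostatin M receptor, stood at 6.11, 16.3 and 16.9 units in PL and 4.70, 5.02 and 4.53 in W2. STAT3 (chromosome 12 from 20407316 to 20471091) went from 12.9, 14.9 and 36.3 to 7.25, 4.62 and 10.1 units. STAT3 changed by -1.39 ± 0.49 on the log2 scale (limma adjusted p = 0.047) and by -2.09 after scaling. CEBPD, a transcription factor that STAT3 induces (chromosome 4 from 79872863 to 79874481), stood at 48.4, 209 and 262 units in PL and 20.5, 27.3 and 6.89 in W2, with all W2 samples lower. CEBPD changed by -3.09 ± 0.58 on the log2 scale (limma adjusted p = 0.0022) and by -3.81 after scaling. CD14, the lipopolysaccharide co-receptor (chromosome 2 from 142348036 to 142349686), went from 9.23, 234 and 298 to 5.38, 7.90 and 6.63 units. CD14 changed by -3.64 ± 0.93 on the log2 scale (limma adjusted p = 0.011) and by -4.34 after scaling. JUNB and ZFP36 were also called lower, although their samples overlapped. Several of these calls were not kept when 1 sample was left out. STAT3, JUNB and ZFP36 kept theirs only without PL sample 2. They lost them without PL sample 3 or 6 or W2 sample 2, 3 or 6 (limma adjusted p up to 0.16, 0.16 and 0.13). OSMR lost its call without PL sample 3 or 6 or W2 sample 6 (limma adjusted p up to 0.059). IGFBP5, a binding protein of insulin-like growth factors that rises in rodent involution, stood at 30.7, 285 and 139 units in PL and 28.8, 45.6 and 30.2 in W2 and was not called (limma adjusted p = 0.063 as deposited). SOCS3, a STAT3 target, had 2.69, 13.3 and 6.32 units in PL and 3.08, 4.76 and 5.37 in W2, which overlap.

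Summed over the list, the level was 247, 1109.7 and 1030.0 units in PL and 381, 435 and 394 in W2, so that PL samples 3 and 6 lay above and PL sample 2 below every W2 sample. Without PL sample 2, 10 of 18 genes were called lower, without any other single sample 2 or 3 were, and with both stages fitted alone none was. CEBPB was a member that went the other way as deposited, from 28.1, 111 and 40.5 to 139, 157 and 179.5 units, without a call after scaling (limma adjusted p = 0.084). Of 14 genes of prolactin and STAT5 signalling, ERBB4, a receptor that can activate STAT5, was the one called (7.14% higher, against 8.94% of all reference genes). It stood at 0.198, 0.425 and 0.495 units in PL and 1.76, 1.90 and 1.92 in W2. ERBB4 changed by 1.45 ± 0.26 on the log2 scale (limma adjusted p = 0.0017) and by 1.05 after scaling. STAT5B stood at 48.2, 48.8 and 79.9 units in PL and 112, 192 and 161 in W2, with a log2 fold change of 1.39 ± 0.37 as deposited and 0.66 after scaling, and was not called. PRLR was not matched and is not analysed here.

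Immediate early genes gave 3 falls (17.6%, against 2.19% of all reference genes) and 1 rise (5.88%, against 8.94%) among 17. FOS went from 6.85, 16.2 and 25.4 units in PL to 4.77, 1.38 and 5.95 in W2, and IER2 from 11.9, 25.5 and 17.8 to 40.4, 41.4 and 51.2. FOS changed by -1.88 ± 0.54 on the log2 scale (limma adjusted p = 0.019) and by -2.55 after scaling. IER2 changed by 1.30 ± 0.23 on the log2 scale (limma adjusted p = 0.0016) and by 0.58 after scaling. Of 22 chemokine and cytokine genes, 2 were called higher and 2 lower, 9.09% each way, against 8.94% and 2.19% of all reference genes. Without PL sample 2, 2 were called higher and 5 lower. CCL4, which draws monocytes and T cells, rose from 0, 4.14 and 2.48 to 12.6, 19.9 and 21.7 units, and IL10, an anti-inflammatory cytokine, from 0.156, 0.122 and 0.306 to 2.09, 2.84 and 2.71. CXCL2, which draws neutrophils, fell from 8.17, 8.62 and 9.00 to 1.76, 0 and 3.03 units and TGFB2 from 4.64, 7.81 and 8.16 to 2.46, 3.60 and 3.91. CCL4 changed by 3.25 ± 0.76 on the log2 scale (limma adjusted p = 0.0073) and by 2.82 after scaling. CXCL2 changed by -2.52 ± 0.69 on the log2 scale (limma adjusted p = 0.016) and by -3.10 after scaling. Many of these calls were not kept when 1 sample was left out. FOS lost its call without PL sample 6 or W2 sample 3 (limma adjusted p up to 0.079). IER2 kept it only without PL sample 3 (limma adjusted p up to 0.11 in the other fits). CCL4 lost its call without PL sample 2 or W2 sample 2, 3 or 6 (limma adjusted p up to 0.096). CXCL2 lost it without W2 sample 3 (limma adjusted p = 0.059) and TGFB2 without W2 sample 2 (limma adjusted p = 0.064). None of 26 interferon-stimulated genes was called in limma's fits on both scales, and at an unadjusted p below 0.05 on both 1 was higher and 1 lower. At that unadjusted threshold 14 were lower and 1 higher after scaling alone, and 1 lower and 2 higher as deposited alone. After adjustment, 3 were lower and none higher on scaled values, against 1447 and 1994 of all 26019 genes and loci. Their median log2 fold change was -0.18 as deposited and -0.72 after scaling. Without PL sample 2, 2 of the 26 were called lower and none higher.

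Genes of cell death, of the lysosome and of matrix breakdown mark involution in rodents. Cell death genes were called in 3.23% of cases each way and lysosome and autophagy genes in 1.96%. Over all reference genes the shares were 8.94% higher and 2.19% lower. Of 31 cell death genes, BCL2, which protects from apoptosis (chromosome 1 from 158337403 to 158518214), rose from 0.429, 1.53 and 0.994 to 5.69, 4.35 and 9.91 units, and TNFSF10, the death ligand TRAIL, fell from 3.83, 14.3 and 16.5 to 5.02, 4.37 and 2.01. BCL2 changed by 2.26 ± 0.37 on the log2 scale (limma adjusted p = 0.0011) and by 1.73 after scaling. TNFSF10 changed by -1.34 ± 0.46 on the log2 scale (limma adjusted p = 0.042) and by -2.00 after scaling, and its samples overlapped. The summed level of 51 lysosome and autophagy genes was 1777, 3665 and 3479.9 units in PL and 3632, 3501 and 3406 in W2. As deposited alone 16 of them were called higher and 1 lower, against 7901 and 644 of all 26019 genes and loci. After scaling alone 1 was called higher and 9 lower, against 1994 and 1447. Without PL sample 2, 1 of the 51 was called higher and 4 lower on both scales. ATG7, needed to build autophagosomes, was called higher in W2, at 1.23, 5.07 and 4.00 units in PL and 10.8, 8.21 and 10.3 in W2, and NPC2, which moves cholesterol out of lysosomes, lower, at 127, 253 and 200.1 and 80.2, 97.4 and 77.6. CTSB, cathepsin B, stood at 43.4, 389 and 272 units in PL and 217, 236 and 181 in W2 and LAMP1, a lysosomal membrane protein, at 60.2, 124 and 137 and 179, 168 and 180.3, and neither was called. Of 21 proteases and inhibitors, MMP19, MMP14 and HTRA1 rose (14.3%, against 8.94%) and none fell. Without PL sample 2, 2 were called higher and 1 lower, and with both stages fitted alone none was called. MMP14, which activates MMP2 at the cell surface, went from 0.337, 1.52 and 1.64 to 4.60, 4.20 and 4.10 units and MMP19 from 1.45, 4.07 and 2.04 to 7.31, 12.2 and 8.60. MMP14 changed by 1.64 ± 0.38 on the log2 scale (limma adjusted p = 0.0063) and by 1.13 after scaling. MMP19 changed by 1.77 ± 0.34 on the log2 scale (limma adjusted p = 0.0025) and by 1.14 after scaling. MMP2 stood at 19.1, 47.1 and 39.5 units in PL and 51.7, 92.6 and 71.8 in W2 and was not called after scaling (limma adjusted p = 0.44). TIMP1 and TIMP3 were not called. Of these genes, calls were lost for TNFSF10 without PL sample 3 or 6 or W2 sample 3 or 6 (limma adjusted p up to 0.16), ATG7 without PL sample 2 or 6 or W2 sample 2, 3 or 6 (limma adjusted p up to 0.14), MMP14 without PL sample 2 or W2 sample 2, 3 or 6 (limma adjusted p up to 0.12) and MMP19 without PL sample 6 or W2 sample 3 (limma adjusted p up to 0.072).

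Matrix genes rose in 7 of 38 cases (18.4%, against 8.94% of all reference genes) and fell in none, with a median log2 fold change of 1.28 as deposited and 0.58 after scaling. Without PL sample 2, 6 were called higher and 2 lower, and with both stages fitted alone none was called. VCAN, the proteoglycan versican (chromosome 2 from 91682177 to 91811674), went from 0.518, 2.07 and 1.28 units in PL to 6.90, 11.9 and 10.6 in W2. VCAN changed by 2.59 ± 0.36 on the log2 scale (limma adjusted p = 0.00043) and by 2.03 after scaling. LUM, lumican, which spaces collagen fibrils (chromosome 5 from 91748871 to 91756381), went from 43.0, 97.0 and 61.0 to 209.5, 324 and 261 units. LUM changed by 2.03 ± 0.31 on the log2 scale (limma adjusted p = 0.00074) and by 1.30 after scaling. NID1 and NID2, linkers of the basement membrane, COL4A1, its main collagen chain, and COL18A1 rose without overlap of the samples. NID2 stood at 6.65, 7.26 and 5.35 units in PL and 20.8, 28.7 and 26.5 in W2, and COL4A1 at 126, 164 and 133 and 422, 361 and 397. COL4A1 changed by 1.49 ± 0.12 on the log2 scale (limma adjusted p = 3.9e-05) and by 0.75 after scaling. COL3A1 was called, at 229, 445 and 245 and 614, 1402 and 1084 units, and COL1A1 was not called after scaling (limma adjusted p = 0.21). The fibroblast markers, a list that shares COL1A1, COL1A2, COL3A1 and LUM with the matrix genes, summed to 499, 1141 and 656 units in PL and 1482, 2755 and 2424 in W2, with 2 of 10 called higher (20.0%, against 8.94%). Their part in the matrix result was not tested. Among the matrix genes named, no call was made for COL3A1 without PL sample 2 or 6 or W2 sample 3 or 6 (limma adjusted p up to 0.14) and COL18A1 without W2 sample 2 or 6 (limma adjusted p up to 0.052). Of 19 tight junction genes, CLDN1, a sealing claudin, was the one called (5.26% higher, against 8.94% of all reference genes). It rose from 0.425, 2.07 and 2.00 to 8.62, 10.2 and 6.65 units. CLDN1 changed by 2.29 ± 0.41 on the log2 scale (limma adjusted p = 0.0017) and by 1.74 after scaling.

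Cell division and DNA replication genes rose in 30 of 44 cases, against 8.94% of all reference genes, and none fell. Their median log2 fold change was 2.18 as deposited and 1.65 after scaling, and the same list without PL sample 2 gave 31 rises. With both stages fitted alone 5 of the 44 were called. As a share of all units the list took 0.0200%, 0.0247% and 0.0229% in PL and 0.0708%, 0.0955% and 0.108% in W2 (exact permutation test, two-sided, n = 3 per stage, p = 0.1). CENPA, the histone of the centromere (chromosome 3 from 112263912 to 112272638), was listed at 0, 0.0112 and 0 units in PL and stood at 5.07, 6.14 and 9.49 in W2. CENPA changed by 3.83 ± 0.45 on the log2 scale (limma adjusted p = 0.00019) and by 3.57 after scaling. CCNA2, cyclin A2 (chromosome 8 from 102260346 to 102266274), which drives S phase, went from 0, 0.980 and 2.06 to 7.67, 11.7 and 14.9 units. CCNA2 changed by 3.22 ± 0.49 on the log2 scale (limma adjusted p = 0.00072) and by 2.82 after scaling. CCNB1, cyclin B1 (chromosome 16 from 47338239 to 47348385), the partner of CDK1 at mitosis, went from 3.52, 2.73 and 1.04 to 17.8, 20.3 and 32.3 units. CCNB1 changed by 3.09 ± 0.32 on the log2 scale (limma adjusted p = 0.00012) and by 2.43 after scaling. UNG, which removes uracil from DNA (chromosome 14 from 41746498 to 41757841), was listed at 0 in every PL sample and stood at 26.4, 29.4 and 20.5 units in W2 (limma adjusted p = 5.7e-05).

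TOP2A, which untangles chromosomes, stood at 2.98, 2.41 and 1.18 units in PL and 14.4, 22.2 and 29.5 in W2, MCM7, a subunit of the replicative helicase, at 13.6, 19.4 and 19.3 and 49.4, 63.3 and 70.2, PCNA, the sliding clamp, at 27.0, 24.5 and 25.7 and 61.5, 106 and 121, and TYMS, which makes thymidylate, at 7.63, 13.3 and 13.3 and 37.6, 82.9 and 92.3. Among the called genes other than CENPA, CCNA2 and UNG, changes ranged from 1.21 ± 0.16 for CDK4 to 3.09 ± 0.32 for CCNB1 as deposited. CCND1, cyclin D1, which carries growth signals into the cycle, went from 7.23, 8.59 and 5.30 to 31.5, 46.3 and 29.0 units. CCND1 changed by 2.25 ± 0.33 on the log2 scale (limma adjusted p = 0.00056) and by 1.55 after scaling. MKI67, the most used marker of dividing cells, was not called: its reference transcripts stood at 1.20, 0.744 and 0.240 units in PL and 1.12, 0.846 and 0.363 in W2, with a log2 fold change of 0.09 ± 0.49 (limma adjusted p = 0.92). CCND2 was not called either. Gene sums leave out transcripts that the authors assembled without a gene name.

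Ribosomal protein genes rose in 55 of 81 cases (67.9%, against 8.94% of all reference genes) and fell in none, with a median log2 fold change of 1.28 as deposited and 0.55 after scaling. They took 5.81%, 9.50% and 11.4% of all units in PL and 20.9%, 21.4% and 20.2% in W2, without overlap (exact permutation test, two-sided, n = 3 per stage, p = 0.1). RPL9 went from 601, 696 and 827 to 1709, 3052 and 2816 units, RPS26 from 983, 949 and 2002 to 4303, 4242 and 3996, RPL22 from 438, 839.9 and 935 to 2263, 2520.1 and 2227 and RPL34 from 425, 988 and 1177 to 2638, 2620.1 and 2526. RPL9 changed by 1.80 ± 0.22 on the log2 scale (limma adjusted p = 0.0002) and by 1.07 after scaling. RPL22 changed by 1.73 ± 0.24 on the log2 scale (limma adjusted p = 0.00041) and by 1.00 after scaling. RPL10 and RPL11 were not called, and RPL11 varied among samples of a stage, at 82.0, 843 and 478 units in PL and 2347, 745 and 2206 in W2. Many ribosomal protein genes have processed pseudogenes, and how the authors' assignment split reads between near-identical copies is not given in the sources used here. With both stages fitted alone 3 of the 81 were called, and without PL sample 2 the number was 48.

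Translation factors rose in 12 of 31 cases (38.7%) and RNA splicing factors in 14 of 44 (31.8%), against 8.94% of all reference genes, and none fell. EIF3E, a subunit of the initiation factor that joins the small ribosomal subunit (chromosome 4 from 29288878 to 29343593), went from 96.2, 199 and 227 to 649, 745 and 580.3 units. EIF3E changed by 2.00 ± 0.28 on the log2 scale (limma adjusted p = 0.0005) and by 1.27 after scaling. NACA and BTF3, which form the complex that meets new chains at the ribosome, also rose: NACA stood at 425, 790.1 and 999.9 units in PL and 2555, 2652 and 2419 in W2. EEF1B2, an exchange factor of elongation, went from 379.6, 733 and 1061 to 2373, 2469.7 and 2364 units. EEF1A1 stood at 2417, 5716 and 3122 and 13287, 11754 and 12699 units and was not called after scaling (limma adjusted p = 0.088). Among splicing genes, HNRNPDL went from 32.9, 55.0 and 51.5 to 178, 227 and 175 units, HNRNPA1 from 59.9, 88.2 and 82.8 to 263, 343 and 297, SNRPD1, a core protein of spliceosomal particles, from 18.8, 25.8 and 21.6 to 57.2, 73.1 and 79.0, and SNRPE, another, from 58.5, 83.8 and 82.5 to 186, 223 and 243. HNRNPDL changed by 2.07 ± 0.23 on the log2 scale (limma adjusted p = 0.00015) and by 1.34 after scaling. SNRPD1 changed by 1.64 ± 0.18 on the log2 scale (limma adjusted p = 0.00013) and by 0.91 after scaling. Without PL sample 2, 17 splicing genes were called higher, and 7 with both stages fitted alone. Of the translation factors, 13 were called higher and 1 lower without PL sample 2, and 2 higher with both stages fitted alone.

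Antioxidant genes rose in 6 of 25 cases (24.0%, against 8.94%) and fell in none, although the list's median changed sign with the scale (0.62 as deposited, -0.10 after scaling). SOD1, which removes superoxide (chromosome 13 from 195326573 to 195335273), went from 119, 149 and 212 units in PL to 732, 787 and 736 in W2. SOD1 changed by 2.27 ± 0.23 on the log2 scale (limma adjusted p = 0.00011) and by 1.54 after scaling. PRDX3 and PRDX6, peroxiredoxins, went from 80.5, 80.9 and 84.8 to 334, 331 and 437 and from 18.8, 31.1 and 36.3 to 122, 132 and 128 units. PRDX6 changed by 2.18 ± 0.23 on the log2 scale (limma adjusted p = 0.00012) and by 1.46 after scaling. CAT, catalase, went from 83.6, 126 and 109 to 434, 451 and 364 units. CAT changed by 1.98 ± 0.23 on the log2 scale (limma adjusted p = 0.00019) and by 1.25 after scaling. GPX1, glutathione peroxidase 1, was low in PL sample 2 and not called, at 33.7, 325 and 311 units in PL and 77.1, 84.7 and 35.6 in W2. Without PL sample 2, 6 genes were called higher and 5 lower.

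Of 68 nuclear subunits of the respiratory chain 7 rose and none fell (8.94% of all reference genes rose), with a median log2 fold change of 0.86 as deposited and 0.13 after scaling. ATP5H, a subunit of the ATP synthase, went from 61.6, 129.8 and 125 to 278, 256 and 322 units, and NDUFA12, a subunit of complex I, from 39.4, 63.0 and 61.8 to 139, 151 and 136. NDUFA12 changed by 1.40 ± 0.17 on the log2 scale (limma adjusted p = 0.00024) and by 0.67 after scaling. Without PL sample 2, 17 of the 68 were called higher. The call was not made for ATP5H without PL sample 2 or 6 or W2 sample 2, 3 or 6 (limma adjusted p up to 0.11). None of the 13 protein-coding genes of the mitochondrial genome was called in limma's fits on both scales, and none passed an unadjusted p below 0.05 on both in either direction. Their direction turned with the scale: 5 were called higher as deposited and 9 lower after scaling, with medians of 0.39 and -0.34. ND1 stood at 2531, 3105 and 3207 units in PL and 3585, 3978 and 4205 in W2. All transcripts of the mitochondrial genome took 7.40%, 9.33% and 10.1% of units in PL and 9.96%, 9.90% and 10.0% in W2, which overlap (exact permutation test, two-sided, n = 3 per stage, p = 0.4).

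Among all reference genes, 840 rises and 161 falls were called without overlap of the samples and with a mean of at least 10 units in the higher stage (5.63% and 1.08% of those tested). Of the 12 largest rises, 5 were genes listed at 0 in every PL sample: UNG, PABPC1, TRAF2, UXT and SLC2A4RG. PABPC1, the cytoplasmic poly(A)-binding protein (chromosome 4 from 36137644 to 36228075), stood at 215, 423 and 933 units in W2 and had means of 939.9 in mid-gestation, 1175 in late gestation (LG, day 110) and 855 in early lactation (EL). TRAF2, an adaptor of tumour necrosis factor receptors, stood at 7.77, 28.7 and 35.2 units in W2, UXT, a prefoldin-like proteinat 15.0, 28.3 and 8.22, and SLC2A4RG, a regulator of the glucose transporter gene SLC2A4, at 14.5, 13.8 and 10.8. A value listed at 0 can be a failed assignment to a transcript as well as a low level, so no fold change is given for them. No call was made for UXT without W2 sample 3 (limma adjusted p = 0.058).

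Cartilage-type collagens were among the other large rises. COL2A1, the main collagen chain of cartilage (chromosome 5 from 78350131 to 78380893), went from 0, 0.0281 and 0.0235 units in PL to 16.6, 19.0 and 14.1 in W2. COL2A1 changed by 5.03 ± 0.74 on the log2 scale (limma adjusted p = 0.0006) and by 4.75 after scaling. COL9A1, which coats type II fibrils, was highest in W2 sample 6, at 24.6, 21.2 and 109.9 units in W2 against 0.0540, 0.227 and 1.92 in PL. COL9A1 changed by 5.31 ± 1.02 on the log2 scale (limma adjusted p = 0.0025) and by 4.89 after scaling. SCRG1, a gene first described in scrapie and also known from cartilage, went from 0, 1.06 and 1.09 to 23.0, 30.8 and 31.6 units. SCRG1 changed by 4.74 ± 0.85 on the log2 scale (limma adjusted p = 0.0017) and by 4.34 after scaling. TMTC2, which adds mannose to cadherins, stood at 0.595, 0 and 0 units in PL and 22.6, 27.6 and 15.1 in W2, ZNF32, a zinc finger protein, at 0, 1.30 and 0 and 23.2, 26.6 and 22.5, MANBAL at 0, 0.261 and 0.463 and 25.6, 14.1 and 24.7, and ZBED2 at 0.765, 0.282 and 0 and 18.7, 19.7 and 22.7. TMTC2 changed by 5.06 ± 0.39 on the log2 scale (limma adjusted p = 2.7e-05) and by 4.61 after scaling. ZNF32 changed by 5.00 ± 0.42 on the log2 scale (limma adjusted p = 3.9e-05) and by 4.66 after scaling. No call was made for MANBAL without PL sample 2 or W2 sample 2 or 6 (limma adjusted p up to 0.066).

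Of the 12 largest falls, 7 have been described: WAP, CSN1S2, LALBA, LBP, HP, SAA3 and TCN1. NUPR1, a small stress-induced regulator of transcription (chromosome 3 from 18402781 to 18404411), went from 689.9, 2291 and 1491 units in PL to 35.3, 29.4 and 36.1 in W2. NUPR1 changed by -5.29 ± 0.45 on the log2 scale (limma adjusted p = 3.9e-05) and by -6.02 after scaling. F3, tissue factor, which starts coagulation (chromosome 4 from 122827018 to 122837673), went from 56.4, 106 and 100.1 to 0, 8.41 and 0.502 units, with W2 sample 3 above the others. F3 changed by -5.69 ± 1.14 on the log2 scale (limma adjusted p = 0.0033) and by -6.28 after scaling. LOC100736878, annotated as a V segment on chromosome 3 from 57214388 to 57321338, was at 75.8, 50.4 and 15.5 units in PL and listed at 0 in every W2 sample, and no call was made for LOC100736878 without PL sample 2 or 3 or W2 sample 2, 3 or 6 (limma adjusted p up to 0.082). LOC100524679 (chromosome 5 from 62294216 to 62325751) stood at 154, 78.8 and 45.3 units in PL and 4.21, 0 and 0.101 in W2, and LOC110260741 (chromosome 5 from 61091785 to 61096759) at 46.0, 49.0 and 13.4 and 0.588, 0 and 0.313.

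Single transcripts did not always move as the sum over their gene. Of 436 reference transcripts that passed on both scales (294 higher, 0.899% of those tested, and 142 lower, 0.434%), 312 were 1 of several transcripts of their gene. Of the 233 higher ones among these, the gene sum was called the same way for 115 (49.4%), not called for 117 and called the other way for 1. Of the 79 lower ones, it was called the same way for 42 (53.2%), not for 33 and the other way for 4. Transcripts listed at 0 in all PL samples and above 0 in all W2 samples numbered 1451, and those listed at 0 in all W2 and above 0 in all PL 275. RPS3, a ribosomal protein gene, shows a part of a gene rising more than the whole: XM_021102267.1 went from 1.82, 0 and 6.05 units in PL to 236, 429 and 403 in W2, a log2 fold change of 7.46 ± 1.16 (limma adjusted p = 0.003), while NM_001044601.1, which holds most of the gene's level, went from 856, 1572 and 1798 to 3319, 3192 and 2579. The sum over RPS3 changed by 1.33 as deposited and 0.59 after scaling. EIF2S3, an initiation factor subunit, had its transcript XM_021080522.1 listed at 0 in PL and at 24.5, 83.6 and 17.3 units in W2, while XM_003134980.6 stood at 46.3, 0 and 0 in PL and 145, 0 and 0 in W2. Its sum was not called (limma adjusted p = 0.061 as deposited).

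Transcripts of 1 gene also moved in opposite directions. As deposited, 22 genes and loci, 14 of them reference genes, held at least 1 higher and 1 lower transcript, and 14, with 8 reference genes, when both transcripts had to pass on both scales. KIAA1429, also known as VIRMA, a subunit of the complex that writes N6-methyladenosine on RNA, had XM_021089100.1 at 6.71, 10.1 and 13.0 units in PL and 0.0153, 0 and 0.0160 in W2, and XM_021089096.1 listed at 0 in PL and at 20.6, 22.3 and 19.8 in W2. The former changed by -4.31 ± 0.88 on the log2 scale (limma adjusted p = 0.013) and the latter had a limma adjusted p of 0.0078. MPP5, also PALS1, a scaffold of epithelial polarity, had XM_021099389.1 at 5.43, 10.9 and 11.4 units in PL and 0.505, 0 and 0.820 in W2, and XM_005656336.3 listed at 0 in PL and at 17.9, 12.1 and 18.9 in W2. MAP2K3, a kinase that activates p38, had XM_021068056.1 at 15.3, 24.5 and 12.5 units in PL and 4.20, 1.76 and 0.558 in W2, and XM_021068055.1 at 0.0655, 0.889 and 5.8e-05 and 3.14, 11.3 and 9.44. None of the 3 gene sums was called on both scales: the limma adjusted p after scaling was 0.075 for KIAA1429, 0.065 for MPP5 and 0.052 for MAP2K3. The reads behind these transcripts are not in the table, so an exchange of transcripts and a different assignment of shared reads cannot be told apart.

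**Figure D4:**
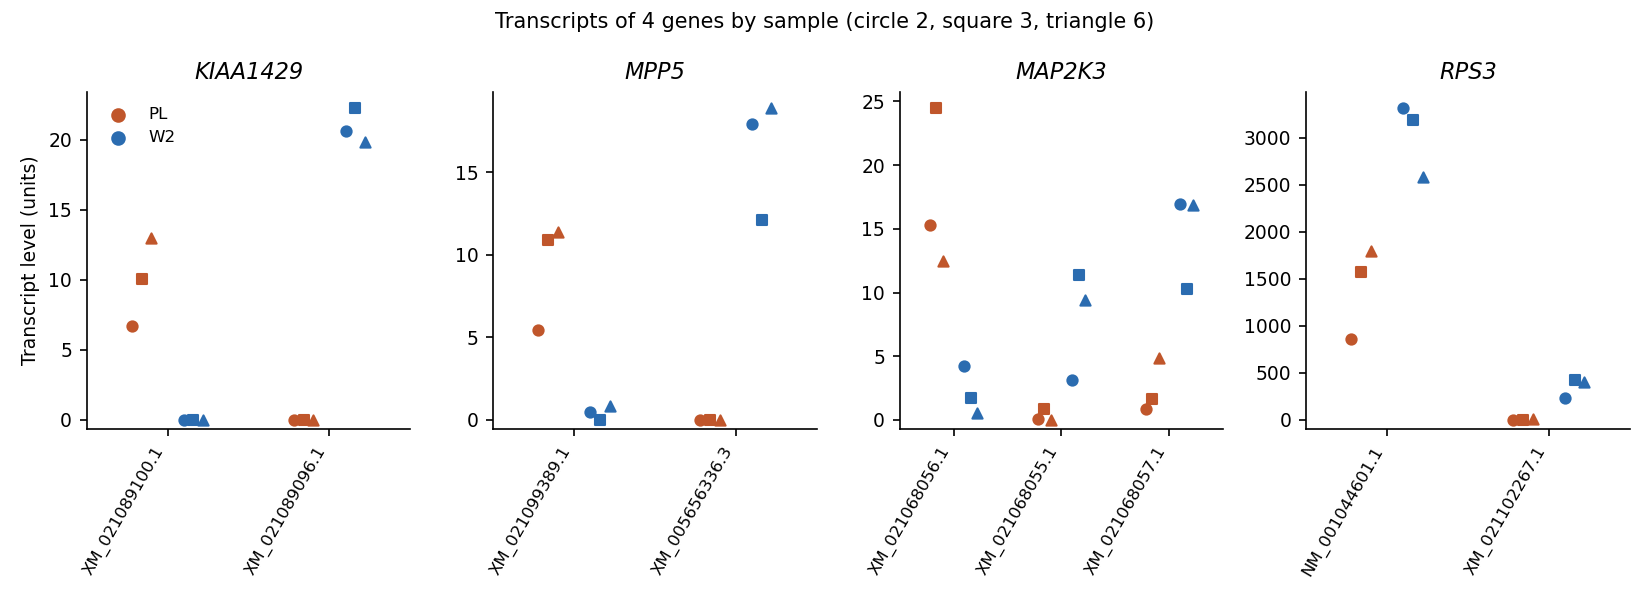
Level in units of transcripts of KIAA1429, MPP5, MAP2K3 and RPS3 in PL (orange) and W2 (blue) samples 2 (circle), 3 (square) and 6 (triangle). In KIAA1429 and MPP5 the transcript seen in PL is at or near 0 in W2 and the one seen in W2 is listed at 0 in PL, while in RPS3 both transcripts are higher in W2.

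Set beside the other stages, PL was at an end of the stage means in more of the called genes than W2 was. Of the 1334 genes called higher in W2, PL had the lowest mean of the 5 stages in 1321 (99.0%) and W2 the highest in 1036 (77.7%) as deposited, and in 1301 (97.5%) and 774 (58.0%) after scaling. Of the 327 called lower, PL had the highest mean in 302 (92.4%) and W2 the lowest in 153 (46.8%) as deposited, and in 317 (96.9%) and 193 (59.0%) after scaling. The calls fix which of W2 and PL was higher, but not where the other stages lay. Choosing genes by that difference favours PL and W2 as the ends, and the same shares over all reference genes are not given here. The counts are descriptive. Summed acute phase levels ran from 42785 to 66726 units in PL and from 1926 to 2064 in W2, beside 2526 to 4127 in mid-gestation, 3748 to 6672 in late gestation and 6264 to 10044 in early lactation. Cell division genes summed to 707 to 1082 units in W2 and 797 to 1079 in mid-gestation, ranges that overlap, and to 199.6 to 247 in PL. WAP ran from 1.22 to 51.8 units in mid-gestation and CSN1S2 from 23.2 to 681, which overlap with W2, while CSN1S1, at 4045 to 5164 units there, was above all W2 samples.

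**Figure D5:**
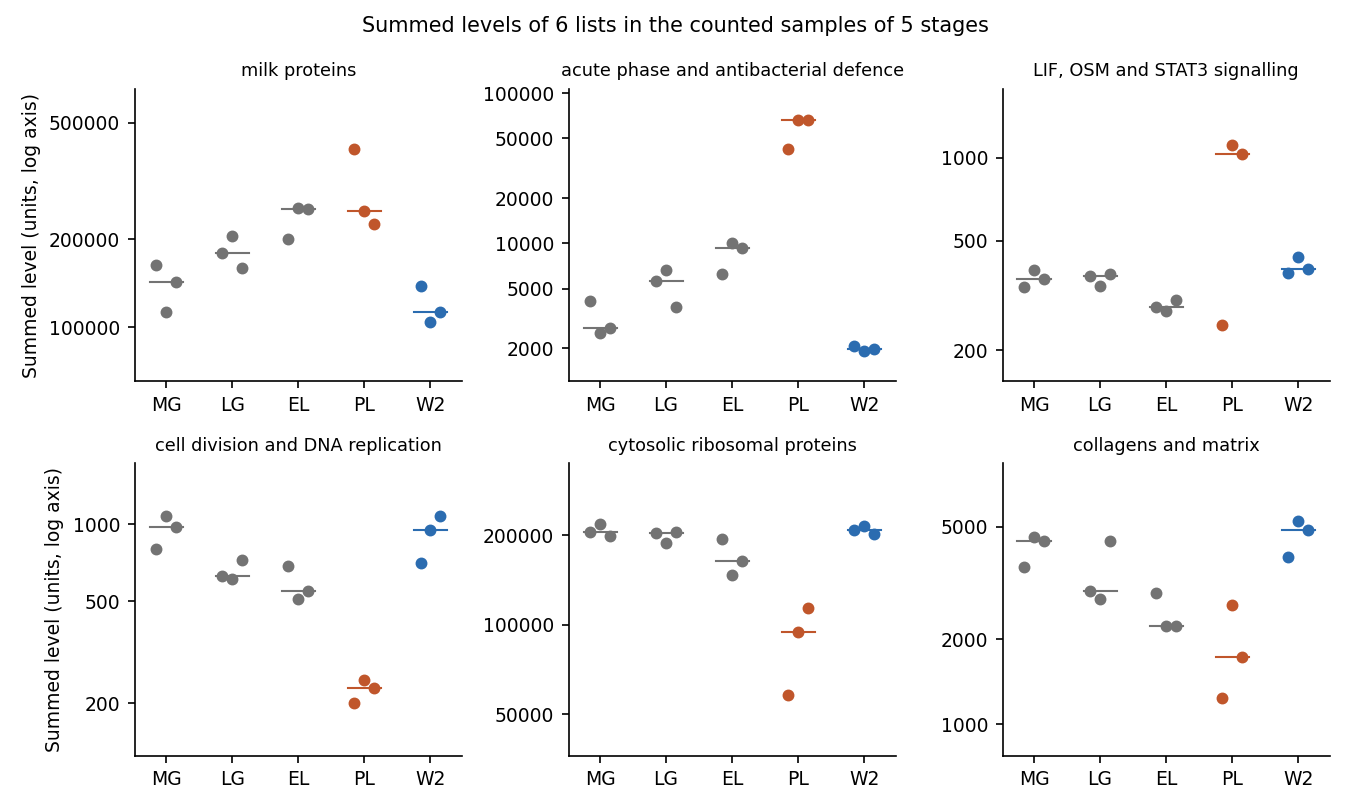
Summed level of 6 gene lists in units on log axes, for the 3 counted samples of each of 5 stages (points) with the stage median (line), PL in orange and W2 in blue. PL is highest in acute phase genes and lowest in cell division and ribosomal protein genes, and PL sample 2 lies below every other sample in the LIF, OSM and STAT3 list.

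Markers of cell types were examined in the same samples. None of 10 luminal markers was called in limma's fits on both scales, or passed an unadjusted p below 0.05 on both: EPCAM stood at 531, 607 and 633 units in PL and 523, 572 and 717 in W2, and KRT8 at 69.9, 345 and 257 and 265, 281 and 349.9. The sums were 955, 2174 and 2035 units in PL and 1661, 2095 and 2449 in W2, and PL sample 2 was lowest. None of 8 basal and myoepithelial markers was called, with sums of 1203, 3235 and 3037 in PL and 2031, 2214 and 2262 in W2. After scaling alone 4 of them were called lower, and as many on both scales without PL sample 2. KRT14, ADIPOQ and PLIN1 were not matched and are not analysed here. Of 8 adipocyte markers, LEP, leptin, and CIDEA were called lower in W2 (25.0%, against 2.19% of all reference genes) and none higher. LEP stood at 1.56, 15.8 and 14.6 units in PL and 0.393, 0 and 0 in W2. As deposited alone 3 others, LIPE, PPARG and FABP4, were called higher (7901 of all 26019 genes and loci were), and after scaling alone none was. FABP4 stood at 331, 370.3 and 234 units in PL and 504, 613 and 497 in W2.

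Among leukocytes, 2 of 8 macrophage markers rose (25.0%, against 8.94% of all reference genes), CSF1R from 1.31, 7.46 and 1.81 to 19.4, 17.2 and 17.5 units and C1QA from 34.0, 50.2 and 55.5 to 104, 133 and 121, and CD14 fell (12.5%, against 2.19%). Calls were lost for CSF1R without PL sample 2 or 6 or W2 sample 2 (limma adjusted p up to 0.059), C1QA without W2 sample 3 (limma adjusted p = 0.065) and LCK without W2 sample 6 (limma adjusted p = 0.054). LCK rose among 10 T and NK cell markers (10.0%, against 8.94%), whose sums were 12.7, 24.1 and 28.9 units in PL and 46.9, 43.4 and 48.6 in W2. Of 7 neutrophil markers, 3 were called lower (42.9%, against 2.19% of all reference genes), the calgranulins S100A8, S100A9 and S100A12. S100A8 fell from 3.50, 2.69 and 12.7 units to values listed at 0 in every W2 sample and S100A9 from 1.93, 7.86 and 13.9 to 0, 0.378 and 0. The other 4, CSF3R, ELANE, FCN1 and MMP9, were not called. Their log2 fold changes were above 0 as deposited, at 0.77, 0.76, 1.05 and 0.23. None of 7 B and plasma cell, 8 endothelial, 4 erythroid or 6 skin markers was called in limma's fits on both scales. At an unadjusted p below 0.05 on both, 1 endothelial and 2 skin markers were higher. Skin markers summed to 22.6, 27.6 and 474 units in W2, with W2 sample 6 far above the others, against 1.52, 11.2 and 8.99 in PL. Of 8 muscle markers, 2 were measured, the myosins MYH1 and MYH2. Both were called lower in W2 (100%, against 2.19% of all reference genes). MYH2 stood at 2.70, 11.7 and 13.0 units in PL and 0.101, 0.229 and 0.338 in W2. The calgranulins were low beside the acute phase genes they moved with, and the part of leukocytes, skin or muscle in any result was not tested.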

How the data were processed

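RNA from mammary parenchyma of 30 sows, 6 at each of 5 stages, was sequenced by the authors as TruSeq libraries. Per the study's methods they trimmed reads with Trimmomatic, aligned them with HISAT2 to Sscrofa11.1, and used StringTie for assembly and quantification. The deposited values are given as FPKM for 61773 transcripts, kept where a stage reached 0.5 FPKM. As deposited by the authors, the values of each sample have nearly the same sum, so they behave as TPM. Whether the RUVs correction named in the methods is part of the deposited values is not given in the sources used here. Read totals of the libraries stand in the study's supplement and are not repeated here. The values themselves carry no read number per transcript, so no counting interval was set. Totals of the counted samples were 997480 to 998888 units. Samples 1, 4 and 5 of W2 and PL were left out as near-copies of the mean of the others.

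Values of reference transcripts were summed per RefSeq gene and those of assembled transcripts per locus. A pseudocount of 0.5 was added, and log2 values of the 15 counted samples of 5 stages were fitted with limma 3.58.1 in R 4.3.3, with trended variance and Benjamini-Hochberg adjustment over all transcripts, or over all 26019 genes and loci. The contrast was W2 minus PL. Values were fitted as deposited and after division by median-ratio factors from 2698 transcripts with at least 10 units in every counted sample. The factors were 0.563, 0.835 and 0.834 in PL and 1.15, 1.24 and 1.27 in W2. The authors ran edgeR, which takes read counts, and limma was used here because the values are FPKM. Genes were named as the 12 largest rises and 12 largest falls among those called without overlap and with a mean of at least 10 units in the higher stage, together with list members, and transcripts as the 5 largest each way. In all, 25 gene lists and 12 cell type marker lists were examined. The members and the lists were chosen with earlier results of these data known. All lists were described by counts, without a set test. On simulated data the fit of 61773 transcripts recovered 121 of 200 planted log2 changes of 3 and made 12 false calls. The changes were planted only in transcripts above a minimum mean level, and noise was drawn independently for each value. No shift of scale and no outlying sample was simulated, so the false calls give no error rate for the real data. The alternatives were other pseudocounts, a filter on low values, W2 and PL fitted alone, a replicate block, all 6 samples per stage, near-identical samples averaged, and each sample left out in turn. Samples of a stage come from separate sows per the study's methods, and an exact permutation test of 3 samples against 3 cannot give a p below 0.1. Where it was run on a list chosen with earlier results known, its result is descriptive. The sequences of the genes are not printed here.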

Additional observations from a re-analysis of the deposited data

How the results depend on the processing

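No share of units and no both-scale call of a named gene turned to the opposite direction under the alternatives. The medians of 10 of 25 gene lists and 5 of 12 marker lists changed sign with the scale. So did the change of some genes without a call, such as KRT8, at 0.69 as deposited and -0.04 after scaling. The balance of the counts also turned. On scaled values 402 transcripts were called higher and 713 lower without PL sample 2, against 481 and 460. Transcripts called higher in W2 numbered 927 with a pseudocount of 1, 219 with W2 and PL fitted alone, 4310 with all 6 samples per stage, 3136 with near-identical samples averaged and 481 after median-ratio scaling, against 1415, and those called lower numbered 58, 1363 and 779 for the fit alone, all samples and averaged samples, against 339. On scaled values, against 481 higher, 743 were called with a pseudocount of 0.1, 312 with 1, 111 alone, 259 with the replicate block, 2526 with all samples and 1526 averaged, and against 460 lower, 83 alone, 270 with the replicate block, 2303 with all samples and 1283 averaged. Against 1994 genes and loci called higher on both scales, 580 were called alone, 6950 with all samples, 4507 averaged and 7901 as deposited only, and against 611 lower, 202, 2186, 1296 and, after scaling only, 1447. Counts from all samples and averaged samples treat near-copies as animals. When each sample was left out in turn, transcripts called higher ranged from 866 to 1795 and lower from 204 to 536, on scaled values from 325 to 668 and from 278 to 713, and genes and loci from 1279 to 2144 and from 437 to 1001. The lowest number of higher transcripts (866) and the highest of lower ones (536), of lower ones after scaling (713) and of lower genes (1001) came without PL sample 2. Without W2 sample 3, 1279 genes were called higher and 204 transcripts lower as deposited and 290 after scaling, and without W2 sample 6, 210 and 278 transcripts were called lower. The difference in shares of all units (W2 minus PL) ranged from -21.0 to -11.9 points for milk proteins, -24.6 to -15.7 for the 20 highest transcripts, -6.46 to -5.26 for acute phase genes, 10.4 to 13.2 for ribosomal proteins, 0.0606 to 0.0794 for cell division and 0.242 to 1.59 for mitochondrial transcripts. The cause of these shifts was not tested.

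Same-numbered samples share only a number: deviations from the stage means correlated at 0.0422, 0.0476 and 0.0266 for samples 2, 3 and 6. With the replicate block, 957 transcripts were called higher and 234 lower as deposited, and 1126 of the 1661 called reference genes (67.8%) kept their call. Over the genes named and listed, 2691 fits of a single gene kept the side of the threshold, 442 lost the call and 13 gained it. The values carry no read number per transcript, and the effect of depth on the calls was not tested.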

Other observations

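A further 16 genes were picked after their values were seen, because they neighbour genes named in the report or stood out in the table. They are described with no support drawn from the choice: 10 were called higher in W2, 5 lower and SOX9 neither.

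The genes include 4 collagens known from cartilage, each picked because it had risen. COL9A2 went from 0.237, 0.951 and 0.504 units in PL samples 2, 3 and 6 to 2.69, 3.96 and 4.48 in W2 samples 2, 3 and 6, and COL9A3 from 0.437, 0.632 and 0.789 to 6.15, 10.1 and 15.4. COL11A1 went from 0.309, 0.334 and 0.521 to 2.69, 3.52 and 3.13 units and COL11A2 from 0.0671, 0.259 and 0.369 to 2.18, 1.19 and 9.06. COL9A3 changed by 3.22 ± 0.32 on the log2 scale (limma adjusted p = 9.3e-05) and by 2.70 after scaling. COL11A1 changed by 2.02 ± 0.28 on the log2 scale (limma adjusted p = 0.00041) and by 1.58 after scaling. SOX9, the transcription factor that drives COL2A1 in cartilage and is also present in mammary epithelium, stood at 8.48, 16.3 and 8.98 units in PL and 38.2, 43.2 and 33.7 in W2 and was not called (limma adjusted p = 0.01 as deposited and 0.16 after scaling). No call was made for COL11A2 without PL sample 2, 3 or 6 or W2 sample 2 or 6 (limma adjusted p up to 0.092).

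AXIN2, a feedback inhibitor of WNT signalling, went from 0.0695, 0.523 and 0 to 10.5, 10.5 and 9.58 units. AXIN2 changed by 4.01 ± 0.39 on the log2 scale (limma adjusted p = 7.7e-05) and by 3.66 after scaling. NKD1, also an inhibitor of that pathway, went from 0.357, 1.02 and 0.959 to 5.88, 9.09 and 4.05 units, APCDD1 from 1.25, 4.11 and 6.98 to 19.5, 15.7 and 12.3 and LEF1, a transcription factor, from 0.102, 0 and 0 to 1.90, 0.498 and 0.859. These genes were picked because they had risen and are no test of a pathway, and no call was made for NKD1 without PL sample 2, 3 or 6 or W2 sample 2 or 3 (limma adjusted p up to 0.12), APCDD1 without PL sample 2 or 3 or W2 sample 2 or 3 (limma adjusted p up to 0.12) and LEF1 without PL sample 3 or 6 or W2 sample 2 or 6 (limma adjusted p up to 0.13). TNFSF11, RANKL, which relays progesterone signals to mammary epithelium, went from 1.12, 1.67 and 2.34 to 14.4, 19.7 and 12.4 units. TNFSF11 changed by 2.87 ± 0.53 on the log2 scale (limma adjusted p = 0.0021) and by 2.25 after scaling. TFRC, the transferrin receptor, went from 0.759, 0 and 11.1 to 24.7, 12.6 and 43.7 units, with overlap after scaling and no call for TFRC without PL sample 2 or 3 or W2 sample 2, 3 or 6 (limma adjusted p up to 0.14).

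Among falls, LRG1, a secreted acute phase glycoprotein, went from 28.8, 150.3 and 244 units in PL to 2.95, 3.01 and 1.10 in W2. LRG1 changed by -5.26 ± 0.59 on the log2 scale (limma adjusted p = 0.00015) and by -5.92 after scaling. EGF, the epidermal growth factor precursor, went from 2.84, 11.0 and 7.00 to 0, 0.804 and 0.0527 units, and SPP1, osteopontin, a phosphoprotein of milk and bone, from 98.9, 179.9 and 296 to 16.5, 24.0 and 23.7. EGF changed by -3.21 ± 0.48 on the log2 scale (limma adjusted p = 0.00063) and by -3.69 after scaling. SPP1 changed by -3.02 ± 0.50 on the log2 scale (limma adjusted p = 0.0011) and by -3.74 after scaling. SLC34A2, a phosphate carrier, went from 224, 252 and 237 to 136, 136 and 124 units and BHLHE40, a repressor of the circadian clock, from 29.7, 96.7 and 105 to 10.3, 8.23 and 9.56. SLC34A2 changed by -0.84 ± 0.16 on the log2 scale (limma adjusted p = 0.0025) and by -1.58 after scaling. BHLHE40 changed by -2.79 ± 0.39 on the log2 scale (limma adjusted p = 0.00048) and by -3.50 after scaling.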
